A study of Mus musculus with 12 samples.

Results

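Embryoid bodies (EBs) of the wild type were set against embryonic stem cells (ESCs) of the wild type, to describe which transcripts changed when unmodified cells left the stem cell state. The comparison was chosen by label, as the 2 arrays titled EB WT against the 2 arrays titled ESC WT, which are 4 of the 12 arrays of the series. Of 19938 genes with a single symbol on the array, 10482 exceeded a signal of 45, or 5.49 on the log2 scale, on at least 1 of these 4 arrays and were tested. EB WT were aggregates grown in suspension without leukaemia inhibitory factor (LIF) and collected at day 7, and ESC WT were the undifferentiated cells, grown on mouse fibroblast feeders and enriched for the surface antigen SSEA1 with magnetic beads. Both carried the wild-type genotype, without targeted deletion, and both were labelled with the cell line HM1, so they stand for 1 line. The series also held 2 EB and 2 ESC arrays each of HP1bKO and HP1aKO cells, labelled with the line R1, which lack the heterochromatin proteins HP1β (gene Cbx1) and HP1α (gene Cbx5). The study's methods name HM1 for the WT arrays of both stages, call it a littermate control of the knockout lines and list R1 as a separate line.

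ESCs keep their state through a network of transcription factors around Pou5f1, Sox2 and Nanog, which is fed by LIF acting through STAT3 and is balanced against FGF and Nodal signals. When LIF is withdrawn and the cells aggregate, the outer cells form extraembryonic endoderm, and the inner cells pass through an epiblast-like and a primitive-streak-like stage before they give rise to mesoderm, including primitive red cells, endothelium and beating heart muscle. EBs are therefore mixtures, and on an array of bulk RNA fewer cells of a type and less RNA per cell cannot be told apart.

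The library labelled ESC WT 2 went against its label. Cbx5, which should be intact in every WT library, read 10.36 and 10.40 in EB WT. It read 9.66 in ESC WT 1 but 8.29 in the library labelled ESC WT 2. In HP1aKO it read 8.04 and 9.995 in ESCs and 9.20 and 9.21 in EBs. In HP1bKO it read 9.72 and 9.88 in ESCs and 10.26 and 10.31 in EBs. Hprt, a purine salvage enzyme, read 4.22 and 4.40 in EB WT, 6.48 in ESC WT 1 but 8.84 in the library labelled ESC WT 2. In HP1aKO it read 8.40 and 4.25 in ESCs and 6.28 and 6.84 in EBs. In HP1bKO it read 4.66 and 4.56 in ESCs and 3.83 and 4.12 in EBs. For both genes the second ESC WT library read like the first ESC HP1aKO library, and the second ESC HP1aKO library was closer to EB WT than the first was. ESC WT 1 lay between the 2 EB HP1aKO libraries for Hprt, and between EB HP1aKO and EB WT for Cbx5. Whether the second libraries of ESC WT and ESC HP1aKO were exchanged was not tested. What ESC WT 1 and the ESC WT mean stand for is uncertain. Cbx1 read 9.36 and 9.45 in EB WT and 9.45 and 10.01 in ESC WT, and Cbx3 read 11.32 and 11.34 in EB WT and 11.57 and 11.18 in ESC WT. The 2 ESC WT libraries lay further apart than the 2 EB WT libraries. The SD of the replicate difference over the genes tested was 0.18 in EB WT and 0.58 in ESC WT. Between replicates 5 genes in EB WT and 826 genes in ESC WT differed more than 2-fold. The other ESC pairs were apart too, with 0.50 and 527 genes in HP1aKO and 0.39 and 280 genes in HP1bKO. The SD was 0.12 in EB HP1aKO and 0.19 in EB HP1bKO. Replicate differences of ESC WT and ESC HP1bKO correlated at 0.50, so the gap was not particular to ESC WT. Median signals lay between 7.17 and 7.42 on the 4 arrays, and between 88.8% and 91.3% of the genes tested exceeded the floor on each. Counts for gene lists are therefore given with and without the library labelled ESC WT 2. Differences are log2 values of EB WT minus ESC WT, ± the standard error of the limma fit, with n = 2 arrays per group, and p-values are two-sided and adjusted over all genes tested. A gene was called when the adjusted p was under 0.05.

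Of the 10482 genes, 3854 (36.8%) were called, 2311 (22.0%) higher and 1543 (14.7%) lower in EB WT. Among the called genes 1047 were at least 2-fold higher and 629 at least 2-fold lower, and 95 and 45 were at least 8-fold higher and lower. In all 3854 the EB and ESC arrays did not overlap, as in 7268 of all genes tested (69.3%). Without the library labelled ESC WT 2, 2880 genes were called, of which 1000 were lower, and 2529 of the 3854 were called again. Leaving out EB WT 1 gave 2200 calls and leaving out EB WT 2 gave 1879, and 1677 genes (1076 higher, 601 lower) were called in each of the 4 fits with 1 WT library left out. Each of these fits left 1 array in 1 WT group, so the spread used for that group came from the other groups. Such counts do not stand for replication within that group. Signals under the floor are close to background. The ESC mean lay under it for 603 called genes, the EB mean for 336 and both means for 95, and the size of these differences is uncertain. Higher genes made up 60.0% of the calls on the deposited scale, and 46.2% when each array was centred on its median, which shifted the differences by -0.12.

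The largest rises joined red cell, heart, vessel and yolk sac genes, and the largest falls joined stem cell and germ cell genes. Hbb-bh1, the embryonic beta-like globin of primitive red cells, read 10.16 and 10.36 in EB WT against 3.36 and 3.44 in ESC WT (6.86 ± 0.14, adjusted p = 1.37e-08). Nrp1, a co-receptor for vascular endothelial growth factor and semaphorins, read 10.34 and 10.53 in EB WT against 4.68 and 3.63 in ESC WT (6.28 ± 0.36). Tdo2, a tryptophan-degrading enzyme, read 8.55 and 8.70 in EB WT against 2.75 and 2.79 in ESC WT (5.85 ± 0.15). In each of these genes the ESC arrays lay under the floor and the EB arrays far above it. Capn6, a calpain without protease activity, read 9.39 and 9.55 in EB WT against 4.16 and 3.67 in ESC WT, and Cpm, a membrane carboxypeptidase, read 9.71 and 9.80 in EB WT against 4.36 and 4.49 in ESC WT. Hapln1, which links hyaluronan to proteoglycans in the matrix, read 7.47 and 7.89 in EB WT against 3.14 and 2.999 in ESC WT. The other large rises, Hba-x, Ttr, Hbb-y, Actc1, Bmp5, Myl7, Igf2, Tnnt2 and Kdr, are described with their groups.

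**Figure D1:**
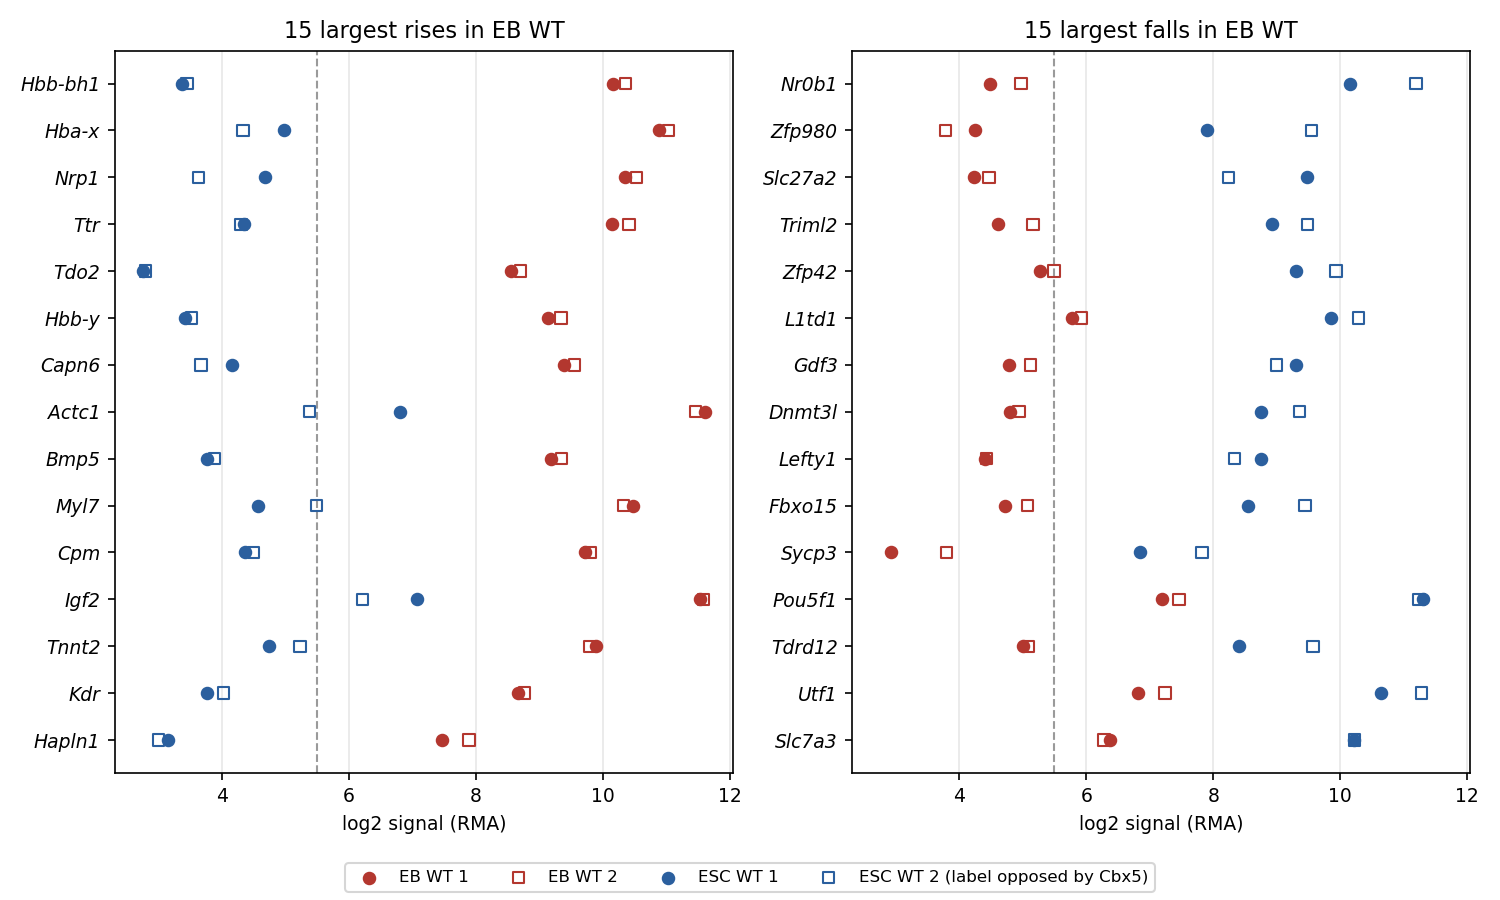
Log2 signal (x axis) on each WT array for the 15 genes with the largest rises and the 15 with the largest falls in EB WT (y axis), in red for EB WT and blue for ESC WT, with filled circles for replicate 1, open squares for replicate 2 and a dashed line at the floor of 5.49. In all 30 genes the EB and ESC points are apart by more than the distance between replicates, as for Nr0b1 at 4.48 and 4.97 in EB WT against 10.16 and 11.19 in ESC WT.

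Among the falls, Nr0b1 (Dax1), a nuclear receptor that binds Pou5f1 in ESCs, read 4.48 and 4.97 in EB WT against 10.16 and 11.19 in ESC WT (-5.95 ± 0.34, adjusted p = 3.50e-06). Zfp980, a zinc finger gene, read 4.25 and 3.78 in EB WT against 7.91 and 9.55 in ESC WT (-4.71 ± 0.65). Slc27a2, a fatty acid transporter and acyl-CoA synthetase, read 4.23 and 4.46 in EB WT against 9.47 and 8.24 in ESC WT, and Triml2 read 4.61 and 5.16 in EB WT against 8.93 and 9.49 in ESC WT. The EB arrays lay under the floor for all 4 genes. Fbxo15, an F-box gene used as an ESC marker, read 4.71 and 5.07 in EB WT against 8.54 and 9.44 in ESC WT. L1td1, an RNA-binding protein derived from a LINE-1 element, read 5.77 and 5.92 in EB WT against 9.85 and 10.28 in ESC WT. A call without the library labelled ESC WT 2 was a condition for naming these 30 rises and falls. They were also called in each of the 3 other fits with 1 WT library left out.

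Across 39 gene lists, 607 genes were tested and 371 were called, and 206 further list genes on the array lay under the floor on all 4 arrays. A member low in 1 stage was tested only if an array of the other stage exceeded the floor, which favours calls in that direction. With no floor, 8 of 23 surface ectoderm and trophoblast genes rose (median 0.21, against 1.55). So did 8 of 19 endoderm factors (median 0.67, against 1.30). The median difference over all genes tested was 0.05, and 36.8% of them were called. Under that share were the lists of p53 targets (35.3%), neuronal (33.3%), cell cycle (29.4%) and heterochromatin genes (22.2%). So were those of microRNA hairpins (14.3%), glycolysis (13.6%) and the primitive streak (8.3%). The order of the lists by their median ran from heart muscle and lateral mesoderm at the top to pluripotency and germ cell genes at the bottom, as the plot of calls per list shows.

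**Figure D2:**
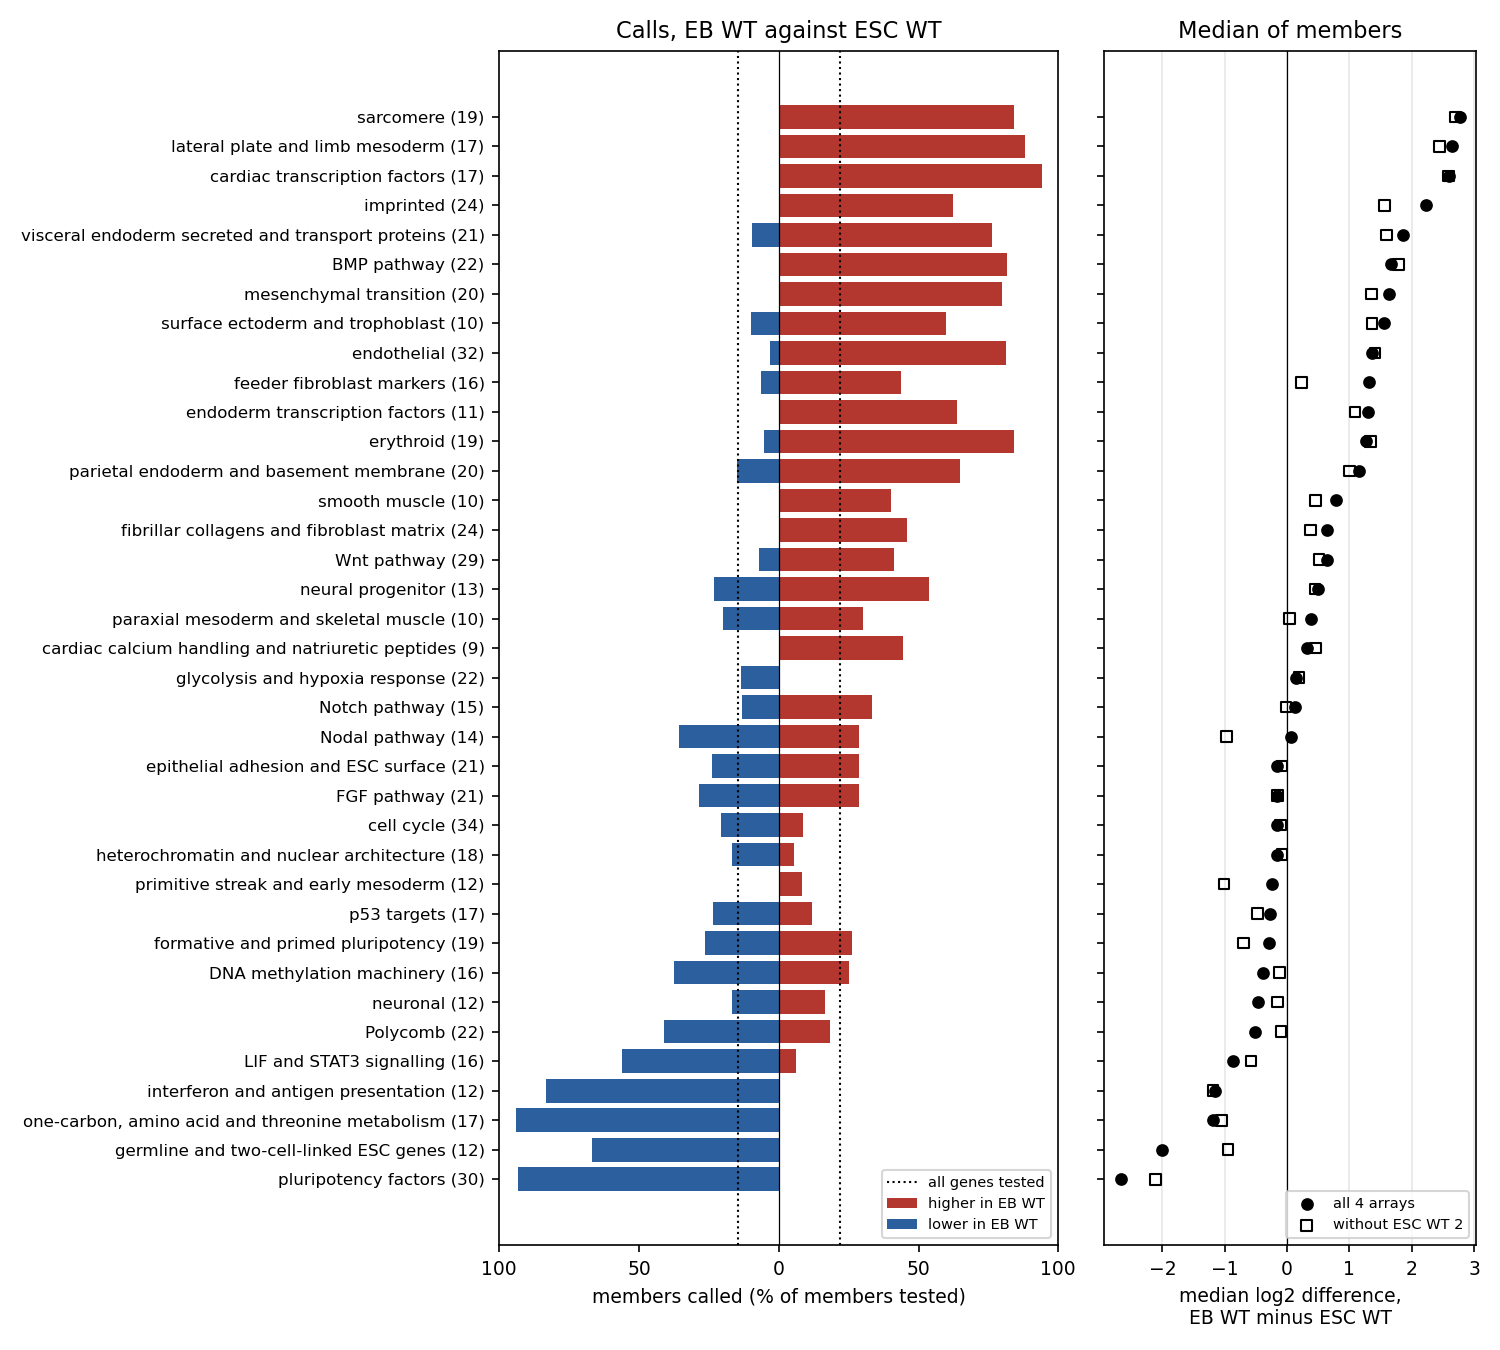
Share of tested members called higher (red, right) or lower (blue, left) in EB WT for lists with at least 9 tested members (number tested in brackets), with dotted lines at the 22.0% higher and 14.7% lower of all genes tested, and at right the median log2 difference of each list with all 4 arrays (filled circles) and without the library labelled ESC WT 2 (open squares). The medians ran from -2.67 for pluripotency factors to 2.77 for the sarcomere, and those of the feeder fibroblast, germ cell and Nodal lists moved most without that library.

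Of 30 pluripotency factors, 28 fell in EB WT, 0 rose and the median difference was -2.67, and without the library labelled ESC WT 2 the count of falls was 25. The extent of the fall differed between members. Pou5f1, the central POU factor, read 7.19 and 7.46 in EB WT against 11.30 and 11.24 in ESC WT (-3.95 ± 0.14). Sox2, its partner, stayed well above the floor, at 8.83 and 9.09 in EB WT against 10.64 and 11.14 in ESC WT (-1.93 ± 0.19). Esrrb, an orphan nuclear receptor of the naive state, read 4.88 and 5.39 in EB WT against 8.29 and 9.76 in ESC WT, and Zfp42 (Rex1) read 5.27 and 5.49 in EB WT against 9.297 and 9.93 in ESC WT, so both were near or under the floor in EB WT. Sall4 fell by 0.75 and Trim71 by 0.44. Lin28a, which blocks let-7 maturation, read 8.94 and 8.93 in EB WT against 9.07 and 8.87 in ESC WT (-0.03) and was not called, nor was Tbx3 (0.37). In ESC WT, 13 of the 30 members were more than 2-fold higher in the library labelled ESC WT 2 than in ESC WT 1 and 0 were more than 2-fold lower, against 4.31% and 3.57% of all genes tested.

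The list of LIF and STAT3 signalling held falls of Stat3 and of some but not all targets. The receptor chains Lifr (7.47 and 7.56 in EB WT, 7.12 and 8.09 in ESC WT) and Il6st (8.84 and 8.94 in EB WT, 8.27 and 9.05 in ESC WT) were not called, nor was Jak1. Stat3, the transducer, fell by 0.89 to 7.78 and 7.85 in EB WT, against 8.54 and 8.87 in ESC WT. Among targets, Socs3, the feedback inhibitor, read 5.68 and 5.90 in EB WT against 7.33 and 8.83 in ESC WT (-2.29 ± 0.42). Klf4 and Tfcp2l1, which connect STAT3 to the pluripotency network, fell by 2.71 and 2.52. Junb (-0.28) and Pim1 (-0.80) were not called. In all, 9 of 16 members fell and 1, Jak2, rose, and the counts were 8 and 0 without the library labelled ESC WT 2 or without EB WT 2.

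Germ cell and cleavage-embryo genes expressed in ESCs formed a group of 12 tested members, of which 8 fell and 0 rose, with a median of -2.01. Sycp3, a protein of the synaptonemal complex of meiosis, read 2.93 and 3.80 in EB WT against 6.84 and 7.82 in ESC WT (-3.97 ± 0.38). Tdrd12, a Tudor protein of the piRNA pathway, read 5.00 and 5.09 in EB WT against 8.41 and 9.57 in ESC WT. Ddx4, the germ cell helicase Vasa, read 3.50 and 3.61 in EB WT against 5.72 and 6.80 in ESC WT. With no floor 9 of 20 members fell, 0 rose and the median was -1.06. The ESC level itself was uneven, since 9 of the 12 were more than 2-fold higher in the library labelled ESC WT 2 than in ESC WT 1. Tex19.1 for example read 4.07 and 4.19 in EB WT, 4.98 in ESC WT 1 but 7.50 in the library labelled ESC WT 2. Without that library 6 members fell, the count was 4 when either EB library was left out, and without ESC WT 1 it was 10, with 1 rise.

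The start regions of these germ cell genes are shown for the hexamer CACGTG, an E-box recognised by basic helix-loop-helix factors. Of 11 members with a RefSeq promoter window (250 bases before to 50 after the start, GRCm38.p6), 5 held CACGTG (45.5%): Ddx4, Sycp3, Mael, Hormad1 and Mov10l1. It stood in 7.15% of all 32851 windows, and 12.5% of the genes tested that had a window held it in at least 1 window. The hexamer reads the same on both strands. The first 3 fell in EB WT, whereas Hormad1 (-1.25) and Mov10l1 (-1.04) were not called. In the 30-base stretches below the capitals mark CACGTG and the number in brackets gives its first base relative to the start.
Ddx4, chr13:112652322-112652351, minus strand (-29): ggcgtccgcccgCACGTGcagccgtttaag
Sycp3, chr10:88459511-88459540, plus strand (-64): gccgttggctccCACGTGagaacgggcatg
Sycp3, chr10:88459532-88459561, plus strand (-43): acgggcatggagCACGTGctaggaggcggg
Mael, chr1:166238950-166238979, minus strand (-223): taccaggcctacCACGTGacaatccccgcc

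Genes of the formative and primed epiblast, the stage after the naive state, moved in both directions, with 5 of 19 higher and 5 lower (5 and 6 without the library labelled ESC WT 2, 4 and 3 without either EB library). With all 4 arrays the shares were 26.3% higher and 26.3% lower, against 22.0% and 14.7% of all genes tested. The share of rises was thus near that of all genes. Dnmt3b, the de novo methyltransferase of the epiblast, read 8.12 and 8.17 in EB WT against 10.54 and 9.70 in ESC WT (-1.97 ± 0.40), and Pim2 fell by 2.88. Fgf5, the classical marker of this stage, read 5.52 and 5.55 in EB WT, 9.11 in ESC WT 1 but 6.42 in the library labelled ESC WT 2, and its fall of 2.23 was carried mainly by the first ESC library. The SoxC factors Sox4 (8.71 and 8.91 in EB WT against 6.90 and 6.19 in ESC WT) and Sox11 (9.13 and 9.21 in EB WT against 7.62 and 6.65 in ESC WT) rose instead, as did Cdh2, the N-cadherin gene, by 2.83.

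Primitive streak genes were low in EB WT at day 7 and differed between the ESC libraries. Mixl1, a homeobox gene of the streak, read 4.61 and 4.56 in EB WT, 6.87 in ESC WT 1 but 4.57 in the library labelled ESC WT 2. Eomes, a T-box factor of the streak and endoderm, read 5.02 and 5.12 in EB WT, 7.36 in ESC WT 1 but 4.59 in the library labelled ESC WT 2. Gsc, Cer1, Lhx1 and Wnt3 showed the same split, and in the list of primed genes Wnt8a did so with 8.57 in ESC WT 1 but 5.24 in the library labelled ESC WT 2, against 5.12 and 5.18 in EB WT. Of 12 members tested, 8 were more than 2-fold higher in ESC WT 1 than in the library labelled ESC WT 2 and 0 were more than 2-fold lower. With both ESC libraries 1 member rose (Pdgfra) and 0 fell, against ESC WT 1 alone 1 rose and 6 fell, and without ESC WT 1 2 rose and 0 fell, so the result for this list depends on which ESC library is used. Mesp1, Mesp2, Tbx6 and Msgn1, factors of nascent and paraxial mesoderm, did not exceed the floor.

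**Figure D3:**
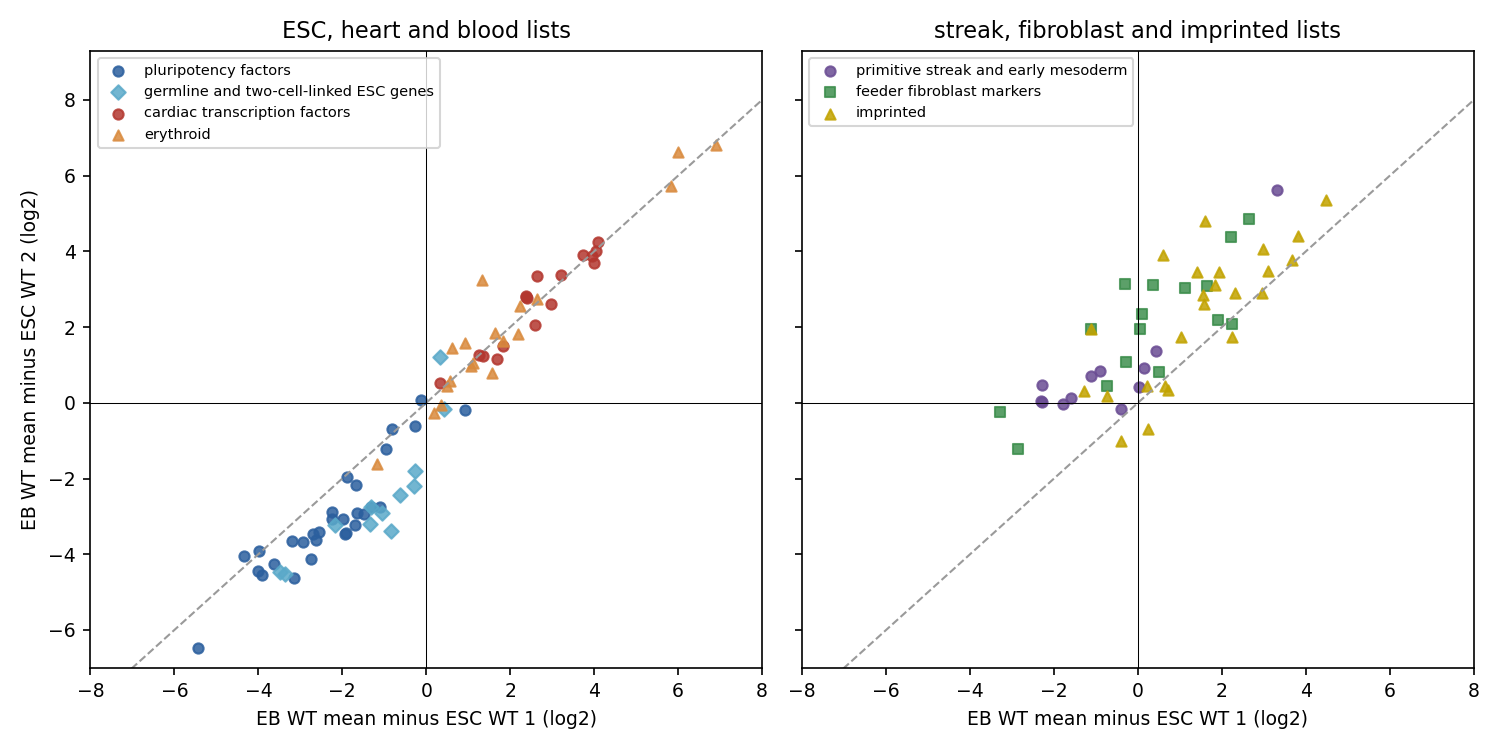
Log2 difference of the EB WT mean from ESC WT 1 (x axis) and from the library labelled ESC WT 2 (y axis) for members of 4 lists at left and 3 lists at right, with a dashed line where both differences are equal. Most cardiac and erythroid genes lie near the line, most germ cell genes lie below it, and most streak and feeder fibroblast genes lie above it, as for Mixl1 with 6.87 in ESC WT 1 but 4.57 in the library labelled ESC WT 2.

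Lateral plate and limb mesoderm factors rose in 15 of 17 tested cases, with 0 falls and a median of 2.64 (15 and 2.44 without the library labelled ESC WT 2). Hand1, a helix-loop-helix factor of extraembryonic mesoderm and heart, read 8.15 and 8.49 in EB WT against 5.10 and 4.95 in ESC WT (3.29 ± 0.20). Foxf1, a forkhead factor of lateral and extraembryonic mesoderm, read 8.39 and 8.53 in EB WT against 5.50 and 5.62 in ESC WT. Msx2, a homeobox gene activated by BMP signals, read 7.18 and 7.47 in EB WT against 4.10 and 3.63 in ESC WT. The same list held factors that stayed under the floor on all 4 arrays, namely Tbx4, Tbx5, Osr1 and Wt1. The ESC mean lay under it for 12 of the 17 tested factors, and with no floor 17 of 21 rose, 0 fell and the median was 2.23. Paraxial and skeletal muscle genes moved less, with 3 of 10 higher (Foxc1, Foxc2, Pax3) and 2 lower (Tcf15, Mylpf), and 3 and 3 without the library labelled ESC WT 2. Of the myogenic factors Myf5, Myod1 and Myog, none exceeded the floor on any of the 4 arrays. Hoxb2, an anterior homeobox gene, read 7.02 and 7.62 in EB WT against 4.40 and 4.57 in ESC WT, and of 37 Hox genes on the array 3 (Hoxb1, Hoxb2, Hoxb4) exceeded the floor.

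Heart muscle was represented from its regulators to its contractile proteins. Of 17 cardiac transcription factors tested 16 rose and 0 fell (median 2.59), and these counts were the same in each fit with 1 WT library left out. Gata6 read 9.55 and 9.69 in EB WT against 5.57 and 5.61 in ESC WT (4.03 ± 0.15), and Tbx20, a T-box factor of the developing heart, read 8.05 and 8.25 in EB WT against 4.05 and 3.90 in ESC WT. Isl1, the marker of second heart field progenitors, read 8.23 and 8.32 in EB WT against 4.29 and 4.58 in ESC WT. Mef2c read 7.87 and 7.92 in EB WT against 4.17 and 4.001 in ESC WT, and Smyd1, a muscle-restricted methyltransferase, read 7.67 and 7.79 in EB WT against 3.80 and 3.85 in ESC WT. Nkx2-5, one of the defining cardiac markers, was the tested member that was not called, with 6.68 and 6.43 in EB WT against 6.22 and 6.04 in ESC WT. Tbx5, Tbx18, Irx4, Hopx and Heyl lay under the floor on all 4 arrays. The ESC mean lay under it for 13 of the 17 tested factors, and with no floor 17 of 22 rose, 0 fell and the median was 2.46.

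Sarcomere genes rose in 16 of 19 tested cases, with 0 falls and a median of 2.77 (15 without the library labelled ESC WT 2). Actc1, the cardiac alpha-actin of the thin filament, read 11.61 and 11.46 in EB WT against 6.80 and 5.37 in ESC WT (5.45 ± 0.60). Tnnt2, the cardiac troponin T that anchors the troponin complex to tropomyosin, read 9.89 and 9.79 in EB WT against 4.74 and 5.23 in ESC WT (4.86 ± 0.17). The regulatory light chain Myl7, which marks the early heart tube and the atria, read 10.46 and 10.32 in EB WT against 4.57 and 5.49 in ESC WT, whereas Myl2, its ventricular counterpart, stayed at 4.18 and 4.27 in EB WT and 3.92 and 3.72 in ESC WT, under the floor. Both cardiac heavy chains rose, Myh6 by 2.77 and Myh7 by 3.42. Tnni1, the slow skeletal troponin I used by the embryonic heart, read 8.01 and 8.13 in EB WT against 4.201 and 4.38 in ESC WT, while the adult cardiac form Tnni3 lay under the floor on all 4 arrays. Tpm2 (0.59), Actn2 (0.43) and Des (0.79) were not called. The ESC mean lay under the floor for 15 of the 19 tested genes, which thus passed it mostly through the EB arrays. With no floor 18 of 29 sarcomere genes rose, 0 fell and the median was 1.62.

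Calcium handling genes were less complete than the sarcomere. Of 9 tested, 4 rose and 0 fell, and without the library labelled ESC WT 2 or without EB WT 1 the count was 2. Slc8a1, the sodium-calcium exchanger, read 6.03 and 6.08 in EB WT against 3.41 and 3.26 in ESC WT (2.72 ± 0.13), and Ryr2, the calcium release channel, read 5.60 and 5.34 in EB WT against 4.03 and 4.19 in ESC WT, at the floor. Atp2a2, the calcium pump of the endoplasmic reticulum, was high in both groups (10.62 and 10.56 in EB WT, 10.39 and 10.57 in ESC WT). Pln, Casq2, Nppa, Nppb and Sln, markers of more mature muscle or of natriuretic peptide expression, lay under the floor on all 4 arrays. Smooth muscle genes were called in 4 of 10 cases, but the count was 2 without the library labelled ESC WT 2, and it was 1 with EB WT 1 left out and 0 with EB WT 2 left out. Acta2 read 11.69 and 11.72 in EB WT, 9.92 in ESC WT 1 but 6.61 in the library labelled ESC WT 2, and 8 of the 10 members were more than 2-fold higher in ESC WT 1 than in that library.

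Of 19 erythroid genes tested 16 rose and 1 fell (median 1.26), and the count of rises was 14 without the library labelled ESC WT 2 and 10 without EB WT 2. The embryonic globins stood apart from the rest of the list in size. Hba-x, the embryonic alpha-like globin, read 10.89 and 11.03 in EB WT against 4.97 and 4.33 in ESC WT (6.31 ± 0.35), and Hbb-y, the epsilon-type beta globin, read 9.14 and 9.34 in EB WT against 3.41 and 3.52 in ESC WT (5.78 ± 0.15). Alas2, the first enzyme of haem synthesis in red cells, read 6.80 and 7.00 in EB WT against 4.27 and 4.15 in ESC WT, and Slc4a1, the band 3 anion exchanger, read 6.86 and 6.70 in EB WT against 4.58 and 4.95 in ESC WT. Among regulators, Gata1 read 5.77 and 6.09 in EB WT against 5.00 and 4.34 in ESC WT, Klf1 read 6.02 and 5.94 in EB WT against 4.87 and 4.94 in ESC WT, and Lmo2, the LIM adaptor of the GATA complex, rose by 2.40. Rhd fell by 1.40, and Tfrc, the transferrin receptor, read 10.82 and 10.99 in EB WT against 10.56 and 10.97 in ESC WT (0.14) and was not called.

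The GATA hexamers AGATAA and TGATAA, which GATA factors recognise, were searched on both strands of the same promoter windows, because the erythroid genes rose together. Of 13 tested erythroid members with a window, 9 held at least 1 of them (69.2%), against 18.6% of all windows and, counted per gene, 11.2% of the genes tested that had a window. Among the 9 was Rhd, which fell. The hexamers also stood in 6 of 19 sarcomere genes (31.6%), which rose too. They stood in 3 of 21 pluripotency factors (14.3%) and in 0 of 11 germ cell genes. In the 30-base stretches below the capitals mark the hexamer, which is read on the opposite strand in Alas2, Klf1 and Epor, and the number gives its first base relative to the start. Hbb-bh1 had no window in the table.
Hba-x, chr11:32276480-32276509, plus strand (-108): tgttgctggctcTGATAAcaggctccaccc
Alas2, chrX:150547319-150547348, plus strand (-86): ctactttgctttTTATCTttagcagaggcc
Klf1, chr8:84901890-84901919, plus strand (-80): tttgcctgggtcTTATCAgggaagacagcc
Epor, chr9:21963613-21963642, minus strand (-54): ggtggctgtagcTTATCTgtccccagcctg

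Markers of white blood cells did not accompany those of red cells. In a list of 28 blood progenitor and leukocyte genes, 25 were on the array and 8 exceeded the floor, and Ptprc (CD45), Spi1 (PU.1), Csf1r and Lyz2 were among the 17 that did not. Runx1, Itga2b and Cd34, markers of early haematopoietic progenitors and, for Cd34, of endothelium, rose by 1.29, 1.10 and 1.36. Cd68, Laptm5 and Coro1a fell, but 0 members fell without that ESC library or without either EB library. In the library labelled ESC WT 2, Cd68 read 8.15, against 5.43 and 5.50 in EB WT and 5.99 in ESC WT 1.

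Endothelial genes rose in 26 of 32 tested cases and fell in 1 (median 1.36), and the counts were 27 and 1 without the library labelled ESC WT 2 and 24 and 3 without ESC WT 1. Fewer endothelial members were called higher without EB WT 1 or without EB WT 2, where the median was 1.46 and 1.32. Among receptors, Kdr, the main receptor of vascular endothelial growth factor, read 8.66 and 8.77 in EB WT against 3.76 and 4.02 in ESC WT (4.82 ± 0.18). Tie1 read 7.14 and 7.09 in EB WT against 4.41 and 4.57 in ESC WT, and Aplnr, the apelin receptor of early mesoderm and vessels, rose by 3.12. Among junction proteins, Cdh5 (VE-cadherin) read 7.81 and 8.12 in EB WT against 3.98 and 3.78 in ESC WT, and Esam rose by 2.48. Among factors of the ETS family, Fli1 (2.34), Ets1 (2.77) and Erg (1.84) rose. Jam2 fell by 2.63, to 6.15 and 6.25 in EB WT against 7.94 and 9.72 in ESC WT. Pecam1, also a marker of ESCs, was not called and read 7.24 and 7.38 in EB WT, between ESC WT 1 at 6.17 and the library labelled ESC WT 2 at 8.40. It was 1 of 14 genes that were called in opposite directions when each ESC library was used alone.

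Of 21 visceral endoderm genes tested, 16 rose and 2 fell (15 and 1 without the library labelled ESC WT 2, 13 and 1 without either EB library). Ttr, the carrier of thyroid hormone, read 10.14 and 10.41 in EB WT against 4.35 and 4.29 in ESC WT (5.95 ± 0.22), and Rbp4, the retinol carrier, read 9.59 and 9.82 in EB WT against 5.25 and 5.46 in ESC WT. Afp, the fetal serum protein, read 6.20 and 6.83 in EB WT against 3.88 and 3.65 in ESC WT. The ESC mean lay under the floor for 13 of the 21 tested genes, which thus passed it mostly through the EB arrays. With no floor 19 of 37 rose and 2 fell, and the median was 0.52, against 1.85 with it. Apob (2.49), Mttp (1.85), which loads lipid onto it, and Apoa1 (2.18) rose together, whereas Apoc1 fell by 1.38. Of 37 members on the array 21 were tested, and the others lay under the floor on all 4 arrays. These included Alb, Fga, Fgg and Ahsg, products of the later liver, but also Cubn, Amn, Apoa2, Apoa4, Apoc3 and S100g. Of 11 endoderm factors 7 rose and 0 fell, also without the library labelled ESC WT 2 (9 and 1 without ESC WT 1), among them Gata4 (2.59) and Sox17 (1.71), while Foxa2 (0.67) and Hnf4a (0.39) were not called. Among basement membrane and parietal endoderm genes, 13 of 20 rose and 3 fell (12 and 1 without the library labelled ESC WT 2 or without EB WT 1, 10 and 2 without EB WT 2). The collagen IV genes Col4a1 and Col4a2 rose by 2.46 and 2.22, and Plat, tissue plasminogen activator, by 2.88. Lamc1 and Lama5 fell by 0.47 and 0.65 and were not called without the library labelled ESC WT 2.

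Neural genes moved in both directions. Sox1 read 6.23 and 6.15 in EB WT against 6.48 and 6.13 in ESC WT and was not called, Pax6 did not exceed the floor and Tubb3 (-0.41) was not called. Of 13 neural progenitor genes 7 rose and 3 fell, and the counts were 5 and 3 without the library labelled ESC WT 2 and 4 and 2 without EB WT 2. The rises included Pax3 (2.37), Zic1 (2.06) and Fabp7 (1.99), and the falls were Sox2, Otx2 and Gbx2, which ESCs also express. Pax3 was also counted among the rises of the paraxial list. Of 12 neuronal genes 2 rose and 2 fell (2 and 3 without the library labelled ESC WT 2, 2 and 4 without ESC WT 1). The falls were Stmn2 (7.70 and 7.87 in EB WT against 10.17 and 10.46 in ESC WT) and Ina (6.01 and 6.08 in EB WT against 8.66 and 8.54 in ESC WT), and the rises were Isl1 and Dpysl3. Isl1 was described above as a marker of second heart field progenitors. Epidermal keratins Krt5, Krt14 and Krt15 and the factor Trp63 did not exceed the floor, while the simple keratins Krt8 (11.54 and 11.56 in EB WT against 9.16 and 8.63 in ESC WT) and Krt18 rose by 2.66 and 2.87. Of 10 surface ectoderm and trophoblast genes 6 rose and 1 (Tfap2c) fell (6 and 2 without the library labelled ESC WT 2).

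Of 20 genes of the mesenchymal transition 16 rose and 0 fell (median 1.63), with 14 rises without the library labelled ESC WT 2 and 10 without EB WT 2. Snai2, the Slug repressor, read 8.38 and 8.63 in EB WT against 5.20 and 4.32 in ESC WT (3.74 ± 0.38), and Tgfb2 read 7.42 and 7.58 in EB WT against 4.07 and 4.15 in ESC WT. Cdh1, the E-cadherin gene, fell by 1.00 to 9.22 and 9.32 in EB WT, against 10.28 and 10.25 in ESC WT, and Epcam fell by 0.80. Within the epithelial list 6 of 21 rose and 5 fell (5 and 3 without the library labelled ESC WT 2 or without EB WT 1, 4 and 4 without EB WT 2). With all 4 arrays 28.6% of the epithelial list rose and 23.8% fell, against 22.0% and 14.7% of all genes tested. Fut9, which makes the SSEA1 epitope used for sorting, read 3.60 and 3.71 in EB WT against 5.25 and 6.84 in ESC WT (-2.39 ± 0.52), and Fut4 lay under the floor on all 4 arrays.

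Fibroblast genes need to be read with the feeders in view. Of 21 feeder fibroblast markers 16 were tested, 7 rose and 1 (Thy1) fell in EB WT, and the counts were 5 and 2 without the library labelled ESC WT 2 and 12 and 1 without ESC WT 1, and no fall was called without EB WT 2. The signals of the 16, summed on the linear scale, came to 3226 and 3563 in EB WT, 2323 in ESC WT 1 but 607 in the library labelled ESC WT 2, and 13 of them were more than 2-fold higher in ESC WT 1 than in that library. Thy1 read 4.84 and 4.38 in EB WT, under the floor, against 7.47 and 5.82 in ESC WT. The markers S100a4, Fap and Ccl2 lay under the floor on all 4 arrays. Of 24 matrix genes 11 rose and 0 fell, and 9 rose and 5 fell without the library labelled ESC WT 2. Bgn read 4.45 and 4.42 in EB WT, 8.65 in ESC WT 1 but 4.74 in the library labelled ESC WT 2, and Col1a2 read 8.76 and 8.82 in EB WT, 9.10 in ESC WT 1 but 5.66 in the library labelled ESC WT 2. Other matrix genes rose against both libraries, as Vcan, the versican of cardiac jelly (10.01 and 9.89 in EB WT against 7.28 and 6.59 in ESC WT), and Postn, periostin (8.60 and 8.97 in EB WT against 6.13 and 3.92 in ESC WT). The part of feeder cells in these values was not tested.

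In the Nodal pathway, ligands, feedback inhibitors and the co-receptor Tdgf1 fell. Nodal itself read 6.18 and 6.26 in EB WT against 8.55 and 8.57 in ESC WT (-2.34 ± 0.37), and its relative Gdf3 read 4.78 and 5.12 in EB WT against 9.29 and 8.99 in ESC WT. The inhibitors Lefty1 (4.41 and 4.43 in EB WT against 8.76 and 8.33 in ESC WT) and Lefty2 (-3.51) are themselves Nodal targets. The 2 EGF-CFC co-receptors moved in opposite directions. Tdgf1 (Cripto) read 8.31 and 8.47 in EB WT against 11.58 and 12.04 in ESC WT (-3.42 ± 0.19), whereas Cfc1 (Cryptic) read 7.90 and 8.08 in EB WT against 4.39 and 4.37 in ESC WT (3.61 ± 0.18). The transducers Smad2 and Smad3 rose by 0.60 and 1.44. Fst, the activin antagonist, read 7.29 and 7.36 in EB WT, 9.29 in ESC WT 1 but 5.53 in the library labelled ESC WT 2. In all, 4 of 14 members rose and 5 fell (4 and 6 without that library).

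Ligands, receptors and targets of the BMP pathway rose, with 18 of 22 tested members higher and 0 lower (median 1.66, 15 higher and 1 lower without the library labelled ESC WT 2). Among ligands, Bmp5 read 9.18 and 9.35 in EB WT against 3.76 and 3.88 in ESC WT (5.44 ± 0.24), Bmp2 read 7.13 and 7.25 in EB WT against 3.70 and 3.34 in ESC WT, and Bmp4 rose by 1.80. The receptors Bmpr1a and Bmpr2 rose by 0.95 and 1.53. Among targets, Id1, Id2 and Id3, inhibitors of helix-loop-helix factors, rose by 2.30, 3.64 and 2.31, and the inhibitory Smad6 read 7.99 and 8.15 in EB WT against 4.76 and 5.27 in ESC WT, while Smad7 was not called (-0.16). The antagonists Nog (0.47) and Chrd (-0.70) were not called, and Chrd was the member called lower without the library labelled ESC WT 2.

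**Figure D4:**
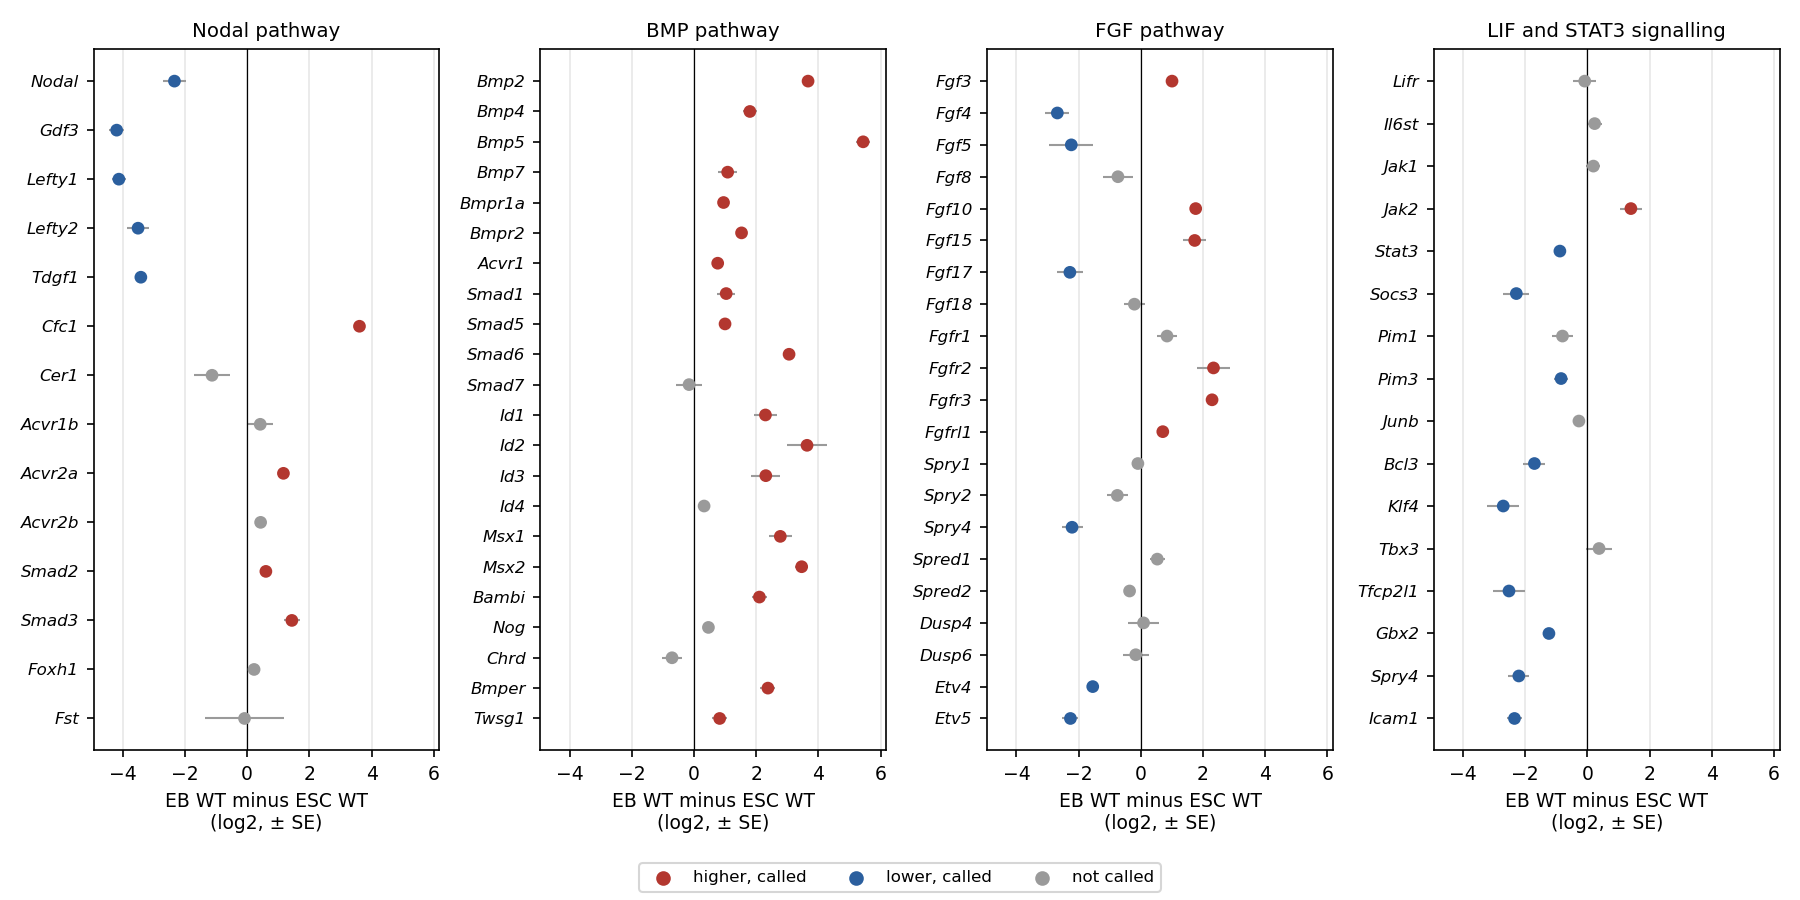
Log2 difference of EB WT minus ESC WT ± the standard error of the fit (x axis, n = 2 arrays per group) for the tested members of the Nodal, BMP, FGF and LIF and STAT3 lists (y axis), coloured red where called higher, blue where called lower and grey where not called. BMP members lie to the right, as Bmp5 at 5.44, and Nodal ligands and inhibitors to the left, as Lefty1 at -4.13.

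In the FGF pathway members moved in both directions. The shares were 28.6% higher and 28.6% lower, against 22.0% and 14.7% of all genes tested. Fgf4, the ESC ligand, read 5.12 and 5.17 in EB WT against 7.06 and 8.59 in ESC WT (-2.68), and Fgf17 fell by 2.28, while Fgf15 read 9.17 and 9.37 in EB WT against 7.36 and 7.70 in ESC WT and Fgf10 rose by 1.77. The receptors Fgfr2 and Fgfr3 rose by 2.34 and 2.29, and Fgfr1 (0.85) was not called. The target factors Etv4 and Etv5 fell by 1.54 and 2.26, and of the feedback inhibitors Spry4 fell by 2.21, whereas Dusp6 (-0.16) and Spry1 (-0.09) were not called. Counts were 6 higher and 6 lower of 21 (6 and 7 without the library labelled ESC WT 2). Wnt pathway members rose in 12 of 29 cases and fell in 2 (9 and 2 without the library labelled ESC WT 2, 8 and 1 without EB WT 2), led by the ligand Wnt2 (7.99 and 8.10 in EB WT against 4.25 and 3.72 in ESC WT), the receptor Fzd4 (2.99) and the antagonists Frzb (3.42) and Dkk1 (2.29). The Wnt target Axin2 (0.80) was not called. In the Notch pathway 5 of 15 rose and 2 fell, with 4 and 2 without the library labelled ESC WT 2, 4 and 4 without ESC WT 1, 4 and 1 with EB WT 1 left out, and 3 and 0 with EB WT 2 left out. The targets Hey1 and Hey2 rose by 1.42 and 2.79, and Notch1 (-0.47) and Hes1 (0.13) were not called. The called share of the Notch list was 46.7%, against 36.8% of all genes tested.

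Chromatin genes changed in part. The share of rises was 25.0% for DNA methylation and 18.2% for Polycomb genes, near the 22.0% of all genes tested. The share of falls was 37.5% and 40.9%, against 14.7%. Of 16 DNA methylation genes 4 rose and 6 fell (4 and 5 without the library labelled ESC WT 2, 1 and 5 without EB WT 2). Dnmt3l, the cofactor of the de novo enzymes, read 4.79 and 4.94 in EB WT against 8.75 and 9.35 in ESC WT (-4.19 ± 0.27), and Tet1, which oxidises methylcytosine, read 7.13 and 7.23 in EB WT against 8.79 and 10.24 in ESC WT. Tet3 rose by 1.497. Dnmt1, the maintenance enzyme, read 9.48 and 9.48 in EB WT against 9.27 and 9.75 in ESC WT, and Dnmt3a (0.00) was not called either. In the Polycomb list 9 of 22 fell and 4 rose (5 and 4 without the library labelled ESC WT 2, 5 and 3 without EB WT 2), and the subunits moved in both directions. Cbx7, the chromobox of ESCs, read 5.57 and 5.28 in EB WT against 7.49 and 7.94 in ESC WT (-2.29), and Phc1 fell by 2.45, whereas Cbx2 and Cbx8 each rose by 1.08 and Bmi1 by 1.95. Ezh2 read 10.19 and 10.26 in EB WT against 10.29 and 10.17 in ESC WT and was not called. Of 18 heterochromatin and nuclear architecture genes 22.2% were called, against 36.8% of all genes tested. The 14 not called included Setdb1 (-0.03), Lmnb1 (-0.20) and the 3 HP1 genes, and Hmga2 rose by 1.94. Of the 3 that fell, 1 (Kdm4c) did so without the library labelled ESC WT 2, the count was also 1 without either EB library, it was 5 without ESC WT 1, and 7 fell when arrays were centred on their median.

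Imprinted genes, which are expressed from 1 parental copy, rose in 15 of 24 tested cases and fell in 0 (median 2.22, 14 and 1 without the library labelled ESC WT 2, 17 and 1 without ESC WT 1). Igf2, the fetal growth factor, read 11.53 and 11.58 in EB WT against 7.07 and 6.21 in ESC WT (4.92 ± 0.31), and its scavenging receptor Igf2r and the antisense transcript Airn rose by 1.99 and 3.71. Airn overlaps Igf2r, and how well the features tell the strands apart is uncertain. Dlk1 read 9.57 and 9.93 in EB WT against 5.93 and 5.34 in ESC WT. Meg3 from the same cluster was not called, at 9.73 and 9.31 in EB WT, 8.93 in ESC WT 1 but 5.62 in the library labelled ESC WT 2. Of the 24 members, 10 were more than 2-fold higher in ESC WT 1 than in that library.

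Of 17 genes of 1-carbon, amino acid and threonine metabolism, 16 fell and 0 rose, with a median of -1.19, and 15 fell without the library labelled ESC WT 2. Slc7a3, a carrier of cationic amino acids, read 6.37 and 6.28 in EB WT against 10.22 and 10.22 in ESC WT (-3.90 ± 0.26). Mthfd2, the mitochondrial folate enzyme, read 7.40 and 7.38 in EB WT against 8.94 and 9.07 in ESC WT, Bcat1, which transfers the amino group of branched-chain amino acids, fell by 2.18, and Asns, asparagine synthetase, fell by 1.19. Glycolysis contrasted with this, since 19 of 22 genes were not called, 0 rose and 3 fell (2 without the library labelled ESC WT 2 or without EB WT 2, 1 without EB WT 1). Ldha read 12.13 and 12.18 in EB WT against 12.16 and 12.04 in ESC WT, while Ldhb, the other lactate dehydrogenase subunit, fell by 1.43.

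Cell cycle genes were mostly not called, with 3 of 34 higher and 7 lower (2 and 6 without the library labelled ESC WT 2, 1 and 2 with EB WT 1 left out, 1 and 3 with EB WT 2 left out, and 2 and 12 when arrays were centred on their median). Ccne1, cyclin E1, read 7.95 and 8.13 in EB WT against 9.62 and 9.90 in ESC WT (-1.72 ± 0.23), and Mycn fell by 1.38, whereas the inhibitor Cdkn1c read 10.96 and 10.998 in EB WT against 9.42 and 8.14 in ESC WT and rose by 2.20. Cdk1 (-0.02), Mki67 (0.47) and Pcna (-0.14) were not called. The called share was 29.4% of cell cycle genes and 35.3% of p53 targets, against 36.8% of all genes tested. Of 17 p53 targets 2 rose and 4 fell (1 and 4 without the library labelled ESC WT 2, 1 and 2 with EB WT 1 left out, 0 and 3 with EB WT 2 left out). Interferon and antigen presentation genes fell in 10 of 12 cases (median -1.15, 9 without the library labelled ESC WT 2, 6 without EB WT 2, and 8 with 1 rise without ESC WT 1), as Ifitm3 (6.99 and 7.29 in EB WT against 9.78 and 9.77 in ESC WT) and Irf1 (5.97 and 6.05 in EB WT against 8.22 and 8.46 in ESC WT). B2m (0.63) was not called.

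MicroRNA hairpins were measured by features of the array that cannot separate the precursor from its host transcript, and most lay near or under the floor. The miR-302 cluster and the miR-17 cluster are shown because their mature products share the hexamer AAGUGC and because the ESC libraries differed for them in opposite ways. In the RefSeq sequences below (GRCm38.p6, chromosomes 3 and 14) the capitals mark the seed, bases 2 to 8. The seed of miR-17-5p and miR-20a-5p is AAAGUGC, that of miR-302d-3p is AAGUGCU, and that of miR-302c-3p, whose listed sequence begins 1 base later, is AGUGCUU.
miR-302c-3p: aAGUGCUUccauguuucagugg
miR-302d-3p: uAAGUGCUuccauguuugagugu
miR-17-5p: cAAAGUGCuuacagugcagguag
miR-20a-5p: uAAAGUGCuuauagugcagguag

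Mir302c read 2.93 and 3.14 in EB WT, 6.11 in ESC WT 1 but 4.39 in the library labelled ESC WT 2 and was called (-2.22). Mir302d read 3.45 and 3.30 in EB WT, 6.31 in ESC WT 1 but 4.06 in the library labelled ESC WT 2 and was not called (-1.81). Mir20a read 5.07 and 5.14 in EB WT, 5.25 in ESC WT 1 but 7.56 in the library labelled ESC WT 2, and Mir17 read 4.48 and 3.73 in EB WT, 3.99 in ESC WT 1 and 6.02 in that library. The miR-302 hairpins were thus higher in ESC WT 1 and the miR-17 hairpins in the library labelled ESC WT 2, and EB WT lay at the lower end for the first cluster and beside ESC WT 1 for the second. Of 7 hairpins tested 1 fell with both ESC libraries, 3 without the library labelled ESC WT 2, 4 without ESC WT 1 and 0 without either EB library.

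The change in WT was set against the same change in each knockout line, which asks whether differentiation moved a gene differently there. The difference WT change minus HP1bKO change was called for 142 of 10741 genes (1.32%), and WT change minus HP1aKO change for 25 of 10712 (0.233%). The WT cells are labelled HM1 and both knockouts R1, whereas the methods call HM1 their littermate control. By the labels, genotype and line cannot be told apart. Smyd1 changed by 3.91 in WT and by 0.47 in HP1bKO (difference 3.44 ± 0.16, adjusted p = 2.88e-05), and Myl7 by 5.36 in WT and by 1.20 in HP1bKO. Cfc1 changed by 3.61 in WT, against -0.81 in HP1bKO and 1.21 in HP1aKO, and was called in both comparisons. In the opposite direction, Tbx4, a hindlimb and allantois factor, read 5.11 and 4.94 in EB WT against 4.79 and 4.90 in ESC WT, and 8.79 and 8.25 in EB HP1bKO against 4.36 and 4.39 in ESC HP1bKO. Without both ESC libraries whose Cbx5 opposed their label the counts were 623 and 165. Leaving out 1 library gave between 54 (without EB WT 1) and 429 (without ESC WT 1) calls against HP1bKO, and between 13 (without EB WT 1 or either EB HP1aKO library) and 87 (without the library labelled ESC WT 2) against HP1aKO.

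**Figure D5:**
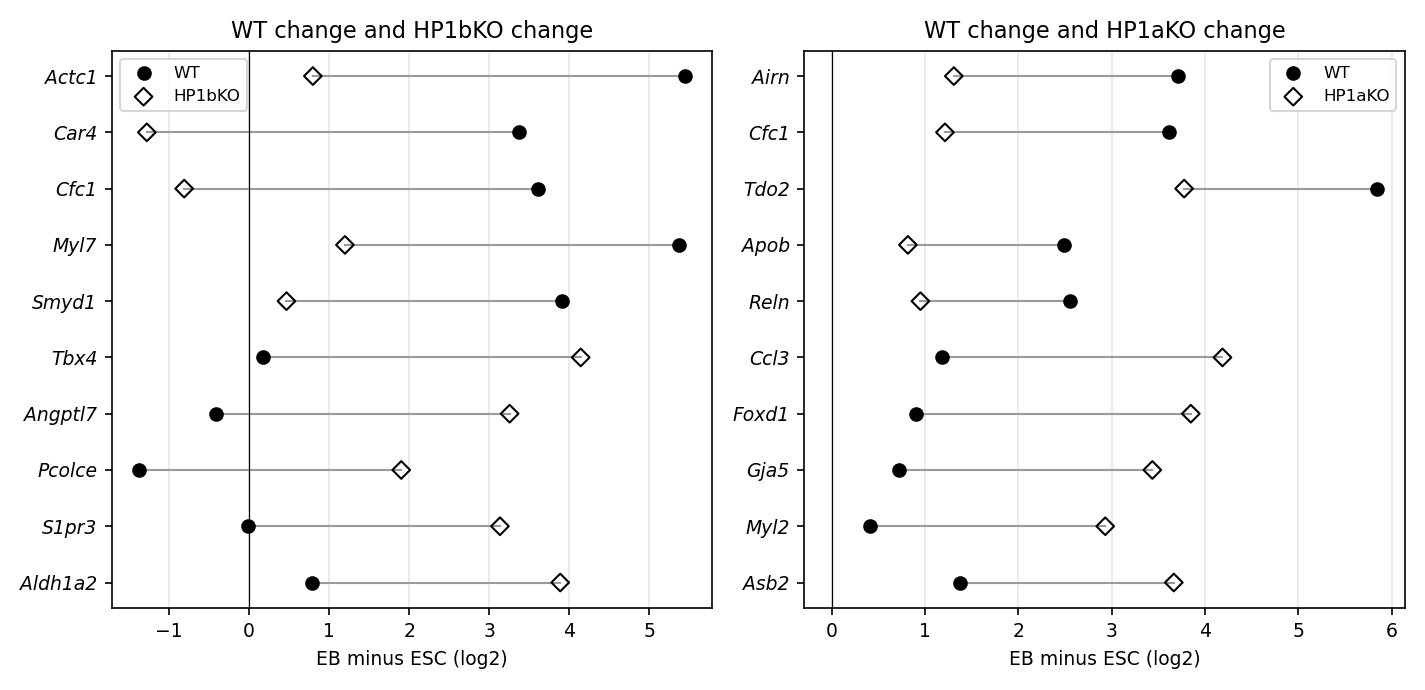
Log2 change of EB minus ESC (x axis) in WT (filled circles) and in HP1bKO (left) or HP1aKO (right, open diamonds) for the 5 genes with the largest difference in each direction (y axis), joined by grey lines, with n = 2 arrays per group. Cfc1 stands in both panels with a change of 3.61 in WT, -0.81 in HP1bKO and 1.21 in HP1aKO.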

How the data were processed

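Total RNA was hybridised to single-channel Affymetrix arrays. The authors processed them with the robust multi-array average (RMA) of Expression Console and deposited the resulting log2 signals. Background correction and quantile normalization across arrays were thus done before, and no source used here gives software or annotation versions. The identifiers match the Mouse Gene 1.0 ST array, whereas the methods name an exon array. Of 35556 features, 21789 carried 1 symbol and were used, with the highest mean where several shared it. Genes were fitted with limma 3.58.1 in R 4.3.3, as a mean for each of 6 groups on all 12 arrays, so that the EB and ESC libraries share 1 estimate of the spread, with empirical Bayes moderation (6 residual degrees of freedom) and Benjamini-Hochberg adjustment at 0.05. A run on simulated data checked only that large added changes were found with little bias, and it set no limit on false calls. Depth does not apply to arrays, and 2 arrays per group limit the precision. The labels and methods call the 2 samples of each group biological, without saying whether they were separate cultures. P-values measure only the spread between such samples, pooled over all 6 groups, so it is not that of the WT arrays alone. The pooling joined the wider ESC pairs with the tighter EB pairs, and the 4 WT arrays alone gave 2123 calls.

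Named genes are the 15 largest rises and 15 largest falls that were called, did not overlap and were called without ESC WT 2, list members beside their list, Cbx1, Cbx3 and Cbx5, and the 5 largest each way for the differences to the knockouts. Members and lists were chosen with earlier results of these data known. Genes known by a locus number were counted but not named. Alternatives were other sample sets, scalings, filters, feature summaries, variance models, array weights, a replicate block and each library left out. Sequences are from RefSeq (GRCm38.p6), with positions counted from the listed start.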

Additional observations from a re-analysis of the deposited data

Results flagged for a closer look

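Genes whose change between EBs and ESCs differed between WT and a knockout by a test of the difference itself are given here, as log2 values of the WT change minus the knockout change. Against HP1bKO, the genes that rose more in WT were Actc1 (4.65), Car4 (4.64), Cfc1 (4.42), Myl7 (4.17) and Smyd1 (3.44). Car4, a membrane carbonic anhydrase, changed by 3.37 in WT and by -1.27 in HP1bKO, and Actc1 by 5.45 in WT and by 0.80 in HP1bKO. Those with the lower value in WT were Tbx4 (-3.96), Angptl7 (-3.67), Pcolce (-3.27), S1pr3 (-3.15) and Aldh1a2 (-3.10). Aldh1a2, which makes retinoic acid, changed by 0.79 in WT and by 3.89 in HP1bKO, and Pcolce, an enhancer of procollagen processing, by -1.37 in WT and by 1.90 in HP1bKO. Of these 10, Actc1 was called in 2 and Car4 in 4 of the 8 fits with 1 library of the 4 groups left out, and the other 8 genes in each of them.

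Against HP1aKO, the genes that rose more in WT were Airn (2.40), Cfc1 (2.40), Tdo2 (2.07), Apob (1.67) and Reln (1.60). Tdo2 changed by 5.85 in WT and by 3.78 in HP1aKO. Those with the lower value in WT were Ccl3 (-3.01), Foxd1 (-2.95), Gja5 (-2.71), Myl2 (-2.53) and Asb2 (-2.29). Myl2, the ventricular light chain, changed by 0.41 in WT and by 2.93 in HP1aKO, with 4.18 and 4.27 in EB WT, 6.70 and 7.00 in EB HP1aKO, 3.92 and 3.72 in ESC WT and 4.08 and 3.76 in ESC HP1aKO. Apob was called in 2 and Reln in 4 of the 8 fits with 1 library left out, and the other 8 genes in each of them. By the labels, line and genotype cannot be told apart in either comparison.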

How the results depend on the processing

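All 30 named rises and falls, chosen in part by their call without ESC WT 2, kept direction and call in the 480 values computed under the alternatives. The count of 3854 called genes (2311 higher, 1543 lower) was 2123 (1373 and 750) with the 4 WT arrays alone and 421 (294 and 127) when tested against a 2-fold change. With 1 WT library left out it ran from 1879 to 4273 (higher 1100 to 2256, lower 697 to 2017). The share of higher genes ran from 52.8% to 68.3% there, and was 46.2% with arrays centred on their median. EB and ESC replicates of WT shared only numbers (correlation of replicate differences -0.07), whereas the ESC groups correlated at 0.30 to 0.50 between genotypes. The replicate block within genotype gave 3374 calls, and 59 for WT change minus HP1bKO change and 7 for WT change minus HP1aKO change. Blocks chosen after seeing the data gave 166 and 25 with the number over all arrays, and 359 and 56 with it within each stage. Without a block, the 2 differences between genotypes had 142 and 25 calls, which were 623 and 165 without the opposed ESC libraries, ran from 54 to 429 and from 13 to 87 with 1 library left out, and the second was 15 with the 4 groups alone. Of 260 values for the 20 genes of these comparisons 231 kept their call, 29 lost it and 0 reversed. List counts moved by over 1.5 times in 87 of 624 values, 33 of them under the 2-fold test. The causes were not tested. Genes near the floor of 45 are limited by signal over background.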

Other observations

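Some gene families outside the lists are described here, with members chosen after their values were seen. Ephrins and their receptors, which guide cell sorting by contact, rose in 9 of 15 tested cases and fell in 1. Efnb1 read 8.09 and 8.10 in EB WT against 5.71 and 5.56 in ESC WT, Efna1 rose by 2.06 and Efna5 by 2.13, while the receptor Epha2 read 6.50 and 6.61 in EB WT against 8.98 and 8.76 in ESC WT (-2.32). Semaphorins and plexins rose in 10 of 20 cases and fell in 3. Plxnd1, the plexin of vessels, read 7.25 and 7.30 in EB WT against 4.24 and 5.22 in ESC WT, and Sema3a and Sema4c rose by 2.76 and 2.23, whereas Sema3e and Sema4d fell by 1.55 and 1.40. Integrins rose in 10 of 16 cases and fell in 2. Itgb8 read 6.45 and 6.69 in EB WT against 5.04 and 4.25 in ESC WT, while Itga6, a laminin receptor subunit, fell by 0.96 and Itgb7 by 2.15. Of 7 Adamts proteases 5 rose and 0 fell, led by Adamts1 (7.79 and 8.10 in EB WT against 5.30 and 5.10 in ESC WT), which cleaves versican. Without the library labelled ESC WT 2 the counts were 9 and 2 for ephrins and their receptors, 9 and 3 for semaphorins and plexins, 7 and 1 for integrins and 5 and 0 for Adamts proteases. Without EB WT 1 they were 6 and 1, 9 and 2, 6 and 1 and 5 and 0 in the same order, and without EB WT 2 they were 5 and 1, 9 and 1, 4 and 1 and 5 and 0. With arrays centred on their median 3 ephrins or receptors fell. The shares with all 4 arrays stand beside 22.0% higher and 14.7% lower of all genes tested.

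Genes of protein synthesis did not share a pattern. With all 4 arrays, small nucleolar RNAs fell more often than the 14.7% of all genes tested. Ribosomal protein genes were called less often than the 36.8% of all genes tested, at 7.4% for cytoplasmic and 23.4% for mitochondrial ones. Mitochondrial ones fell in 20.8% of cases, against 14.7% of all genes tested. Of 44 small nucleolar RNAs, which guide modification of ribosomal RNA, 22 fell and 0 rose (median -1.28), as Snord49a (7.14 and 6.99 in EB WT against 8.17 and 9.84 in ESC WT) and Snora33 (5.41 and 5.36 in EB WT against 7.82 and 7.98 in ESC WT). In 32 of the 44 the library labelled ESC WT 2 was more than 2-fold higher than ESC WT 1, and 10 fell without it, 40 with ESC WT 1 left out, 10 with EB WT 1 left out and 5 with EB WT 2 left out. Of 54 cytoplasmic ribosomal protein genes 4 fell and 0 rose (8 and 0 with arrays centred on their median), among them Rpl10l (5.67 and 5.34 in EB WT against 8.68 and 8.57 in ESC WT) and Rpl39l (-2.12), retrogene copies known from the testis that share sequence with Rpl10 and Rpl39, so how well their features separate them is uncertain. Of 77 mitochondrial ribosomal protein genes 16 fell and 2 rose, and 8 fell without the library labelled ESC WT 2 or without EB WT 2, 2 without EB WT 1. The zinc finger genes named Zfp were called higher in 58 and lower in 28 of 236 cases. Their shares of 24.6% and 11.9% were close to the 22.0% and 14.7% of all genes tested. These counts were 47 and 41 with arrays centred on their median, 50 and 43 with ESC WT 1 left out, 53 and 16 with the library labelled ESC WT 2 left out, 39 and 13 with EB WT 1 left out and 21 and 16 with EB WT 2 left out.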
